A study of Danio rerio with 20 samples.

Results

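The receptor genes igf1rb and rarga were followed through 20 arrays of a zebrafish embryo study of solvents. They were chosen by the identifiers of their probes, 45d04 for igf1rb and 03d17 for rarga, and each gene had 1 spot among the 16578 probe spots of an array. Whole embryos were exposed from shortly after fertilisation until 48 h to dimethyl sulfoxide (DMSO) or dimethylformamide (DMF), solvents that are used to bring poorly soluble chemicals into test water. The groups were unexposed control embryos, DMSO at 0.025 ml/L, DMSO at 0.1 ml/L, DMF at 0.025 ml/L and DMF at 0.1 ml/L. No strain or genotype is given in the labels. Each of the 4 replicates of a group was RNA from the pooled surviving embryos of 1 plate that had held 20 exposed embryos. A value is thus an average over many animals. The p-values rest on the spread of comparisons between such pools, which also holds noise of the arrays. In RNA from whole embryos, fewer cells of a type and less RNA per cell cannot be told apart. The 20 pools were compared as 10 pairs, each on 2 arrays with the Cy3 and Cy5 dyes exchanged, and any 2 of the 5 groups met on 1 pair. The pools of a group are named below by their replicate number, as pool 1 to pool 4.

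The gene igf1rb encodes a zebrafish counterpart of the insulin-like growth factor 1 receptor, a membrane tyrosine kinase that passes the signal of IGF ligands to the PI3K-Akt and MAPK pathways. In fish embryos this receptor family is known for its part in body growth and cell survival. The gene rarga encodes a zebrafish retinoic acid receptor gamma, a nuclear receptor that binds retinoic acid, pairs with a retinoid X receptor and controls target genes such as the hox genes of the hindbrain and trunk. Both receptors relay signals that come from outside the cell, the first at the membrane and the second on DNA.

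Array 1 was left out because its file and that of array 17 name the same scan. Arrays 1 and 17 had a correlation of 0.881 between their raw log2 ratios, where no other arrays exceeded 0.605, and igf1rb had the same amplitudes on both, 3672 in Cy3 and 2844 in Cy5. Array 17 was kept. By its scan name it was in 1 scan batch with its partner, array 15, whereas array 2, the partner of array 1, was in another than array 1. Which sample the shared scan holds was not tested. The pair of control pool 3 and DMF 0.1 ml/L pool 1, on arrays 15 and 17, carries this doubt. With array 1 left out, array 2 lacked the opposite dye orientation, so 18 arrays in 9 pairs were used. This removed DMSO 0.1 ml/L pool 1 and DMF 0.025 ml/L pool 2 and left 3 pools in each of these groups. The scan names in the files place arrays 3 to 14, or 6 pairs, in a second scan batch and arrays 15 to 20, or 3 pairs, in the last one. Between 35.5% and 51.0% of probe spots had a confidence grade above the lowest in the second batch, and between 56.2% and 67.4% in the last. On arrays 1, 2 and 7 some blocks of spots appeared shifted in position against array 20, taken as the reference (4, 9 and 1 of 48 blocks). The blocks of igf1rb and rarga did not appear shifted on any array. As a check of the tissue, 5 genes of the embryo (egr1, mafba, dlx2a, hoxb1b and hmx3a) exceeded the median of the empty spots in 35 or 36 of 36 channel values. The median probe also exceeded it on every array and dye, so this count alone says little. The 95th percentile of the empty spots was exceeded in 35 values for egr1, 27 for hoxb1b and 26 each for mafba, dlx2a and hmx3a.

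Both receptor probes gave a signal on every array. The amplitude, the spot brightness estimated by the scanner software, ranged from 141 to 4277 for igf1rb over the 36 channel values of the 18 arrays. It was above the median of the array's 366 empty spots in 35 of 36 values and above their 95th percentile in 30. The rarga amplitude ranged from 221 to 4241, above the empty median in 36 of 36 values and above the 95th percentile in 33. Every spot of both genes had a confidence above the lowest grade, with 0.27 to 0.88 for igf1rb and 0.15 to 0.78 for rarga, so each had a ratio in all 9 pairs.

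The signal stood out less in the second scan batch than in the last. There igf1rb was 0.957 to 95.5 times the empty median, with 18 of 24 values above the 95th percentile, and in the last batch it was 43.8 to 385 times, with 12 of 12. For rarga the ranges were 1.52 to 108 times, with 21 of 24, and 16.6 to 197 times, with 12 of 12. The only value below the empty median was igf1rb in DMSO 0.1 ml/L pool 3 on array 11, where an amplitude of 1855 in Cy5 was 0.957 times that median. DMSO 0.025 ml/L pool 2 came next, with 1791 in Cy5 on array 14, or 1.08 times the median. The faintest amplitudes of both genes, 141 for igf1rb and 221 for rarga, came from DMF 0.025 ml/L pool 4 in Cy5 on array 7. They were still 2.90 and 4.54 times the empty median of that array and dye.

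**Figure D1:**
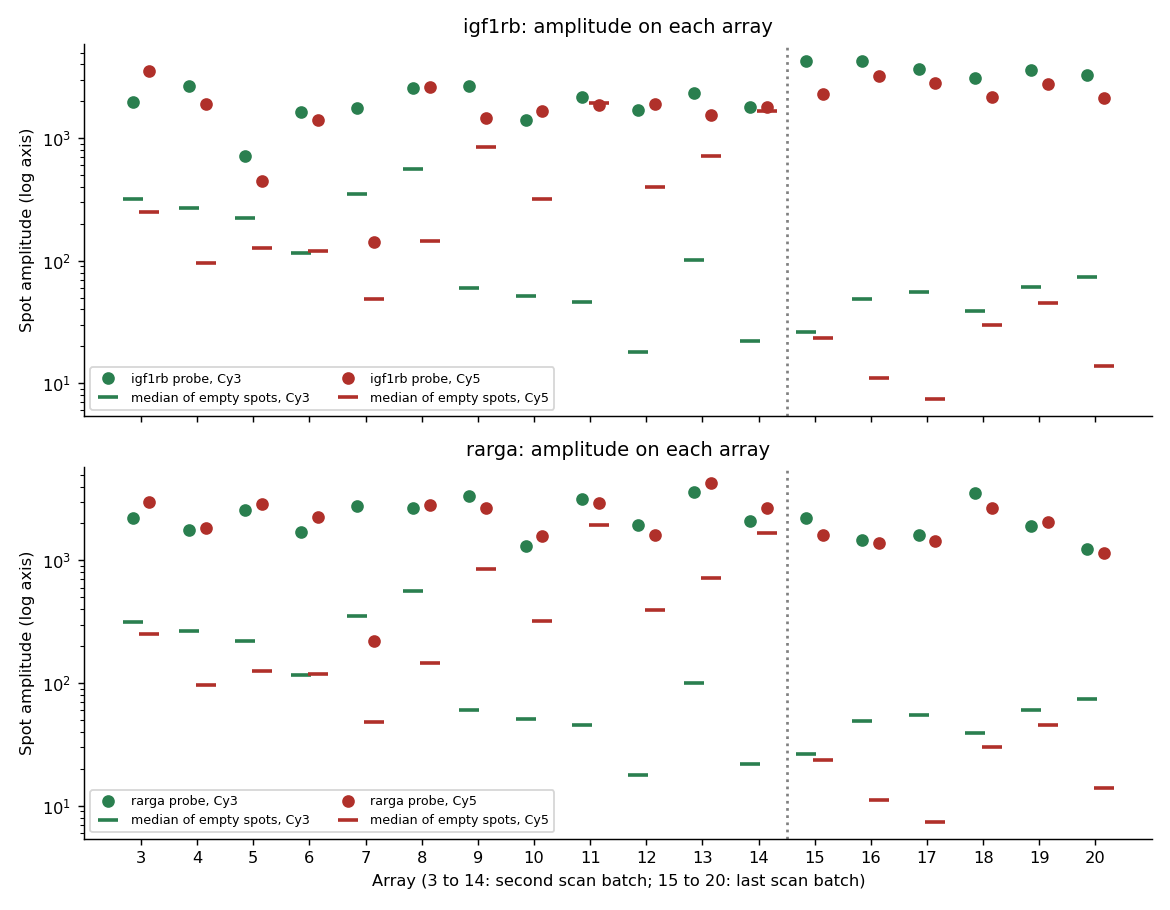
Amplitude of the igf1rb probe (upper panel) and the rarga probe (lower panel) on arrays 3 to 20, on a log axis without units, with 1 point per dye and a dash for the median of the empty spots of the same array and dye. The dotted line parts the second scan batch from the last, where all 12 channel values of each gene lie far above the empty spots. In the second batch the empty spots come close to the probes in Cy5 on arrays 11 and 14.

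Each pair gave 1 log2 ratio per gene, the mean of its 2 arrays after loess normalization with the sign turned one way, so that a dye effect shared by its arrays drops out. The pair ratios of igf1rb ran from -0.39 to 1.04. Control pool 4 over DMSO 0.1 ml/L pool 3 gave the highest, 1.04, with 0.65 and 1.44 on its 2 arrays. The 1.44 comes from array 11, where igf1rb in the DMSO pool was not above the empty median, so that this ratio and its rank are uncertain. Next came DMF 0.1 ml/L pool 4 over DMSO 0.025 ml/L pool 4 with 0.70 (0.34 and 1.06). The 1.06 comes from array 9, where igf1rb in the DMSO pool was 1.72 times the empty median. That value was not above the 95th percentile of the empty spots, so this ratio is uncertain too. In both of these pairs igf1rb was lower in the DMSO pool on each array.

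The other igf1rb ratios were smaller. The ratio of DMSO 0.1 ml/L pool 2 over DMSO 0.025 ml/L pool 2 was 0.48, with -0.039 and 0.99 on its arrays. The 0.99 comes from array 14, where igf1rb in DMSO 0.025 ml/L pool 2 was only 1.08 times the empty median. Control pool 3 over DMF 0.1 ml/L pool 1 gave 0.36 (0.029 and 0.69). For DMF 0.025 ml/L pool 4 over DMSO 0.025 ml/L pool 3 it was 0.037, the mean of -0.74 and 0.81. These pairs show how far apart the dye orientations lay for igf1rb. In the pair of DMF 0.025 ml/L pool 4 and DMSO 0.025 ml/L pool 3, the Cy5 values were faint. They were 2.90 times the empty median on array 7 and 2.16 times on array 13. Neither was above the 95th percentile of the empty spots, and the part of this in the gap was not tested. For DMSO 0.025 ml/L pool 1 over control pool 1 igf1rb was nearly equal, at -0.026 (-0.14 and 0.092). It was -0.30 (-0.49 and -0.11) for DMF 0.025 ml/L pool 3 over DMF 0.1 ml/L pool 2. It was -0.37 (-0.73 and -0.0079) for DMSO 0.1 ml/L pool 4 over DMF 0.1 ml/L pool 3, again with igf1rb lower in the DMSO pool. Control pool 2 over DMF 0.025 ml/L pool 1 gave -0.39 (-0.88 and 0.097). The arrays of a pair had the same sign in 5 of 9 pairs.

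The rarga ratios ran from -0.39 to 0.92 and differed less between dye orientations. Control pool 4 over DMSO 0.1 ml/L pool 3 was again the highest, 0.92 (0.72 and 1.12). The ratio of DMSO 0.1 ml/L pool 2 over DMSO 0.025 ml/L pool 2 was 0.54 on each array. For DMSO 0.025 ml/L pool 1 over control pool 1 it was 0.51 (0.52 and 0.49). These pairs do not order the groups one way: they put DMSO 0.1 ml/L below control, control below DMSO 0.025 ml/L, and DMSO 0.025 ml/L below DMSO 0.1 ml/L. In Cy5, rarga in DMSO 0.1 ml/L pool 3 was only 1.52 times the empty median on array 11. In DMSO 0.025 ml/L pool 2 it was 1.60 times on array 14. Neither was above the 95th percentile of the empty spots, so the order from these pairs is uncertain. Control pool 3 over DMF 0.1 ml/L pool 1 gave 0.44 (0.46 and 0.43). The ratio of DMSO 0.1 ml/L pool 4 over DMF 0.1 ml/L pool 3 was -0.39 (-0.23 and -0.55). For DMF 0.025 ml/L pool 4 over DMSO 0.025 ml/L pool 3 it was -0.36 (-0.73 and 0.0032). The -0.73 comes from array 7, where rarga in the DMF pool was 4.54 times the empty median. That value was not above the 95th percentile of the empty spots, so this ratio is uncertain too. In the remaining pairs rarga was closer to equal. The ratio of DMF 0.1 ml/L pool 4 over DMSO 0.025 ml/L pool 4 was 0.19 (-0.082 and 0.47). That of DMF 0.025 ml/L pool 3 over DMF 0.1 ml/L pool 2 was -0.088 (0.053 and -0.23). Control pool 2 over DMF 0.025 ml/L pool 1 gave -0.059 (-0.20 and 0.083). Here too the arrays of a pair had the same sign in 5 of 9 pairs.

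**Figure D2:**
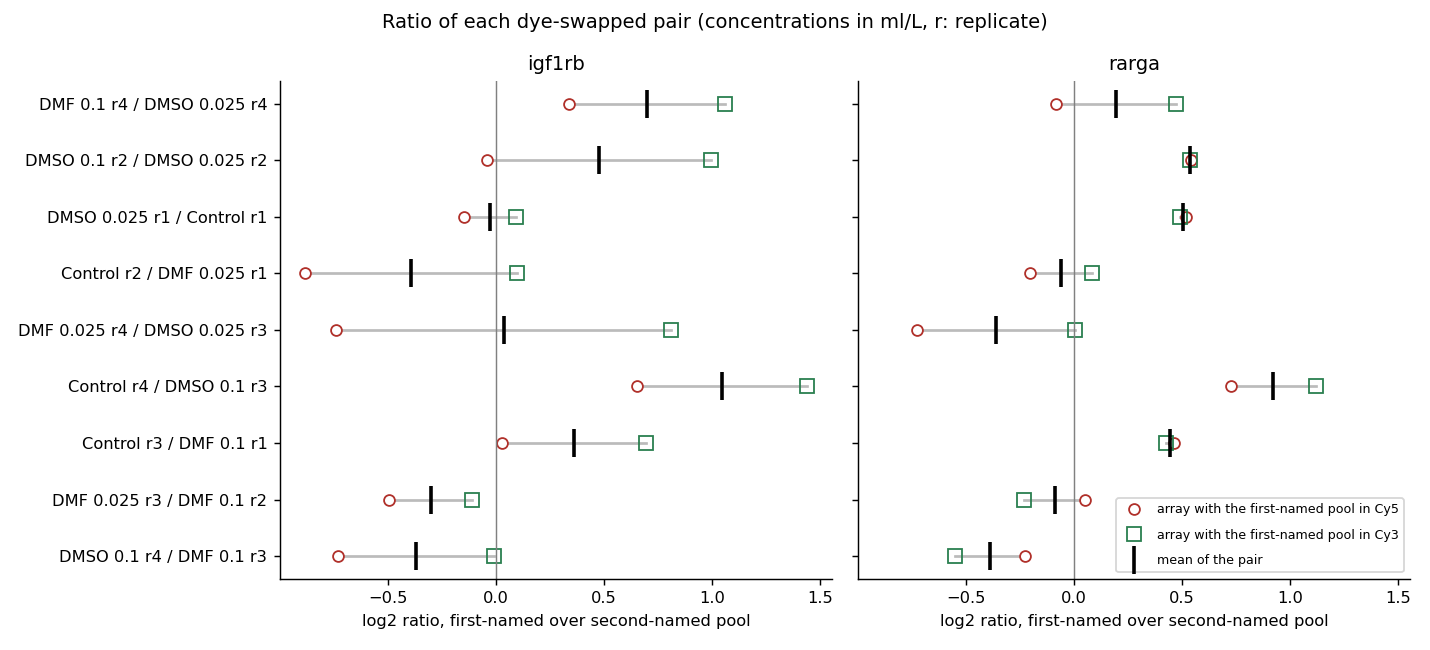
Log2 ratio of igf1rb (left) and rarga (right) in each of the 9 dye-swapped pairs, named on the vertical axis as first pool over second pool. Circles and squares are the single arrays with the first-named pool in Cy5 and in Cy3, and bars are the means of a pair. The igf1rb square lies to the right of the circle in all 9 pairs, and control pool 4 over DMSO 0.1 ml/L pool 3 is the highest ratio of both genes.

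The dye mattered for igf1rb in one direction. The dye term of a pair, which is the part of the Cy5 over Cy3 ratio that keeps its sign when the dyes are exchanged, was negative for igf1rb in 9 of 9 pairs, from -0.77 to -0.12 with a median of -0.36. The ratios are normalized by loess, so igf1rb was thus weaker in Cy5, relative to Cy3, than probes of similar amplitude. This does not mean a brighter Cy3 spot. On raw amplitudes the brighter dye varied, as on array 3, with 3528 in Cy5 and 1957 in Cy3. For rarga the term was negative in 4 of 9 pairs and ran from -0.36 to 0.16. A term on one side in all pairs was found in 28.3% of the 2685 probes with a ratio in every pair, and 20.1% had a median at least as far from 0 as that of igf1rb. The igf1rb values not above the 95th percentile of the empty spots were in Cy5 on arrays 7, 9, 11, 13 and 14 and in Cy3 on array 5. In the last scan batch every igf1rb value was above it, and the dye terms were -0.33, -0.19 and -0.36. The part of the faint values in the dye term was not tested. The dye term drops out of the pair mean but stays in a ratio from a single array.

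Levels within pools were used to list the groups in order, and an offset between scan batches does not cancel in them. A level is the mean of a pool's normalized log2 values in Cy3 and Cy5, and is a scale of the array rather than an amount of RNA, so that igf1rb and rarga levels are not set against each other. The igf1rb level was highest in DMF 0.1 ml/L with 11.71 ± 0.58 (SD, n = 4), from single pools at 12.10, 12.01, 11.87 and 10.85. Control followed with 11.05 ± 0.96 (n = 4), from 10.35, 10.53, 12.46 and 10.87. DMF 0.025 ml/L had 10.88 ± 0.85 (n = 3), from 10.92, 11.71 and 10.01. The pools of these groups overlapped. DMSO 0.1 ml/L had 10.76 ± 0.86 (n = 3), from 10.96, 9.83 and 11.51. DMSO 0.025 ml/L was lowest with 10.23 ± 0.22 (n = 4), from 10.32, 10.48, 9.97 and 10.15. Neighbouring groups in this order differed by less than the larger of their SDs. All pools of this lowest group lay below all pools of DMF 0.1 ml/L, and they overlapped with the pools of the other groups. Of the 2685 probes with a ratio in every pair, 1.19% had the same separation and 1.49% the opposite one. The groups compared were picked as the lowest and highest of igf1rb, while the share counts these same groups for every probe. Nothing is therefore read from it.

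The igf1rb levels were apart between the scan batches. The 12 pools of the second batch had igf1rb levels of 9.83 to 10.96 (median 10.41), and the 6 pools of the last batch had 11.51 to 12.46 (median 11.94), with no overlap. Of the 2685 probes with a ratio in every pair, 2.57% had all pools of the last batch above all of the second and 1.42% had all below. DMF 0.1 ml/L had 3 of its 4 pools in the last batch, DMSO 0.025 ml/L had 0 of 4, and the other groups had 1 each. Within the second batch, the single DMF 0.1 ml/L pool, at 10.85, lay inside the range of the 3 control pools, 10.35 to 10.87. Within the last batch, the 3 DMF 0.1 ml/L pools lay below the single control pool, at 12.46. On raw amplitudes the batches overlapped, with means of the log2 values of both dyes of 9.16 to 11.58 in the second batch and 11.43 to 11.77 in the last. The part of the scan batch in the order of the levels was not tested. An offset between batches cancels in the pair ratios, since both pools of a pair were on the same arrays. The fit over these ratios, given below, did not repeat the order of the igf1rb levels. It had -0.0069 for DMF 0.1 ml/L minus control, where the mean levels were 11.71 and 11.05. For DMSO 0.1 minus 0.025 ml/L it had -0.0099, where the mean levels were 10.76 and 10.23.

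The rarga levels spread less, and the groups lay closer together. Control had 11.14 ± 0.24 (SD, n = 4), from single pools at 11.11, 10.84, 11.42 and 11.19. DMF 0.1 ml/L had 11.08 ± 0.21 (n = 4), from 10.97, 11.38, 11.07 and 10.90. DMSO 0.025 ml/L had 10.96 ± 0.48 (n = 4), from 11.61, 10.52, 11.01 and 10.71. Its 4 pools spanned the levels of all others except DMSO 0.1 ml/L pool 3. DMF 0.025 ml/L had 10.94 ± 0.32 (n = 3), from 10.90, 11.29 and 10.65. DMSO 0.1 ml/L was lowest with 10.67 ± 0.39 (n = 3), from 11.06, 10.27 and 10.68. Neighbours in this order also differed by less than the larger of their SDs, and every group overlapped with every other. The scan batches overlapped too, with 10.27 to 11.61 in the second and 10.68 to 11.42 in the last.

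**Figure D3:**
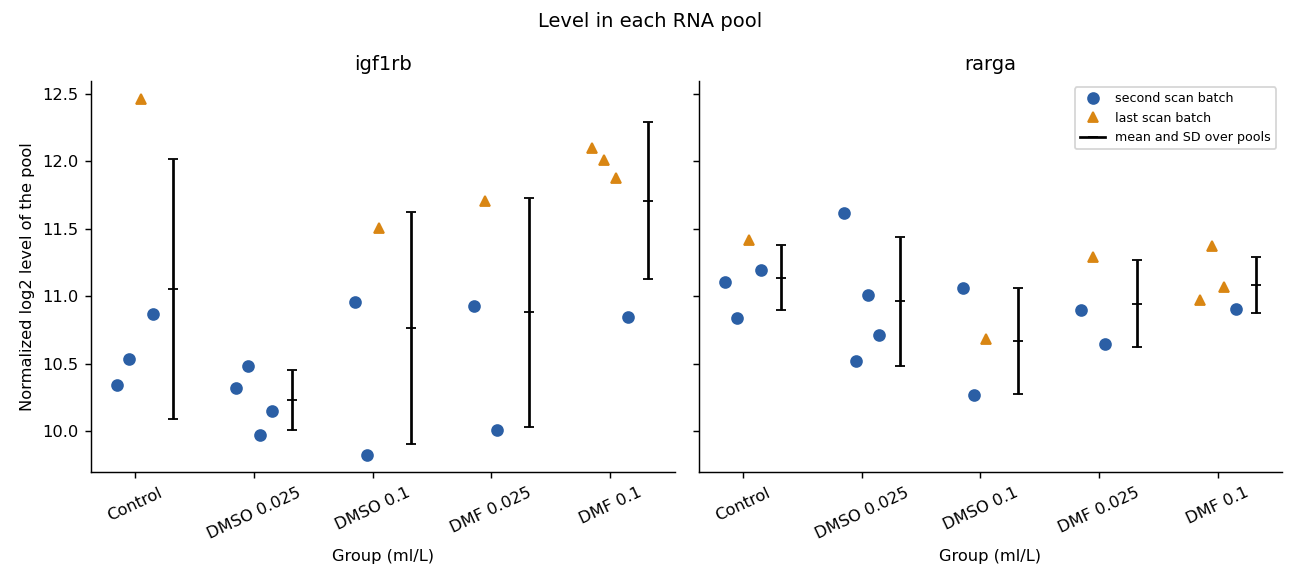
Normalized log2 level of igf1rb (left) and rarga (right) in each RNA pool by group, with circles for pools of the second scan batch, triangles for pools of the last, and the mean with its SD beside them. For igf1rb every triangle lies above every circle, and 3 of the 4 DMF 0.1 ml/L pools are triangles. For rarga the symbols are mixed.

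Group differences were estimated in 1 model over the 9 pairs and all 3652 probes that had a ratio in at least 8 pairs. The test was limma's moderated test with 5 residual degrees of freedom, p-values were adjusted by Benjamini-Hochberg over all 3652 probes, and the threshold was an adjusted p of 0.05. Neither receptor passed in any of the 8 group differences or in the F test over the 5 groups, and neither had an unadjusted p under 0.05 in any of them. The F statistic was 1.42 for igf1rb (limma adjusted p = 0.707) and 0.390 for rarga (adjusted p = 0.951). Among all probes 0.0821% passed that F test, 3 of 3652, with 344 at an unadjusted p under 0.05. All 4 exposed groups had estimates below control for both genes, and these estimates share the same control pools.

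The first question was whether a solvent alone alters these transcripts. For DMSO at 0.1 ml/L against control, igf1rb differed by -0.47 ± 0.28 (log2, SE of the fit), with a 95% interval of -1.08 to 0.15 (limma adjusted p = 0.506). For rarga the difference was -0.34 ± 0.30, from -0.99 to 0.31 (adjusted p = 0.670). In this comparison 0.274% of probes passed, 10 of 3652, with 449 at an unadjusted p under 0.05. Both estimates leaned on the 1 pair that held both groups. That pair gave -1.04 for igf1rb and -0.92 for rarga, and without it the estimates were 0.041 and 0.17. Leaving out the pair of DMSO 0.1 and 0.025 ml/L pools 2 instead moved them the other way, to -0.71 for each gene. The unadjusted limma p was then 0.029 for igf1rb and 0.019 for rarga (adjusted p = 0.382 and 0.373). In DMSO 0.025 ml/L pool 2 the Cy5 amplitudes on array 14 were 1.08 and 1.60 times the empty median. The second scan batch alone gave -0.44 for igf1rb and -0.20 for rarga, and the last batch, reached through DMF 0.1 ml/L, gave -0.73 and -0.83 with no test. The DMSO 0.1 ml/L pool of the pair with control was the one in which igf1rb lay at 0.957 and 4.60 times the empty median. There rarga lay at 1.52 and 4.73 times. The part of this low contrast in the result was not tested. With empty spots taken as background, igf1rb had -0.61 in this comparison.

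For DMSO at 0.025 ml/L against control, igf1rb differed by -0.46 ± 0.26, with an interval of -1.02 to 0.11 (limma adjusted p = 0.996). Its unadjusted p, 0.106, was the lowest of either gene in any group difference. For rarga the difference was -0.13 ± 0.28, from -0.73 to 0.47 (adjusted p = 0.996). Here 0% of probes passed, with 160 at an unadjusted p under 0.05. The pair that held both groups gave -0.026 for igf1rb, and it gave 0.51 for rarga, the opposite sign of the fit. All 4 DMSO 0.025 ml/L pools were in the second scan batch, which alone gave -0.30 for igf1rb and -0.0072 for rarga. The last batch held no such pool. In the dye closest to the empty spots, igf1rb in DMSO 0.025 ml/L pools 2, 3 and 4 was 1.08, 2.16 and 1.72 times the empty median, and the part of this in the result was not tested.

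For DMF at 0.025 ml/L against control, igf1rb differed by -0.11 ± 0.28, from -0.72 to 0.50 (limma adjusted p = 0.980). For rarga the difference was -0.21 ± 0.30, from -0.86 to 0.44 (adjusted p = 0.937). Again 0% of probes passed, with 227 at an unadjusted p under 0.05. The shared pair gave 0.39 for igf1rb and 0.059 for rarga, each with the sign opposite to the fit. The second batch alone gave 0.062 and -0.15, and the last gave -0.66 and -0.53. For igf1rb the sign differed between the batches, but the value of the second was smaller than its SE, so no difference in direction is read from it.

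For DMF at 0.1 ml/L against control, igf1rb differed by -0.0069 ± 0.26, from -0.57 to 0.56 (limma adjusted p = 0.999), and rarga by -0.12 ± 0.28, from -0.72 to 0.48 (adjusted p = 0.999). In this comparison 0% of probes passed, with 34 at an unadjusted p under 0.05. The shared pair, the only one of the last batch that held control, gave -0.36 for igf1rb and -0.44 for rarga. It includes array 17, whose scan name array 1 shares. The second batch alone gave 0.39 ± 0.59 and 0.19 ± 0.62. The sign differed between batches for both receptors. The second-batch values, from 1 DMF 0.1 ml/L pool, were smaller than their SEs, so no difference in direction is read from this.

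**Figure D4:**
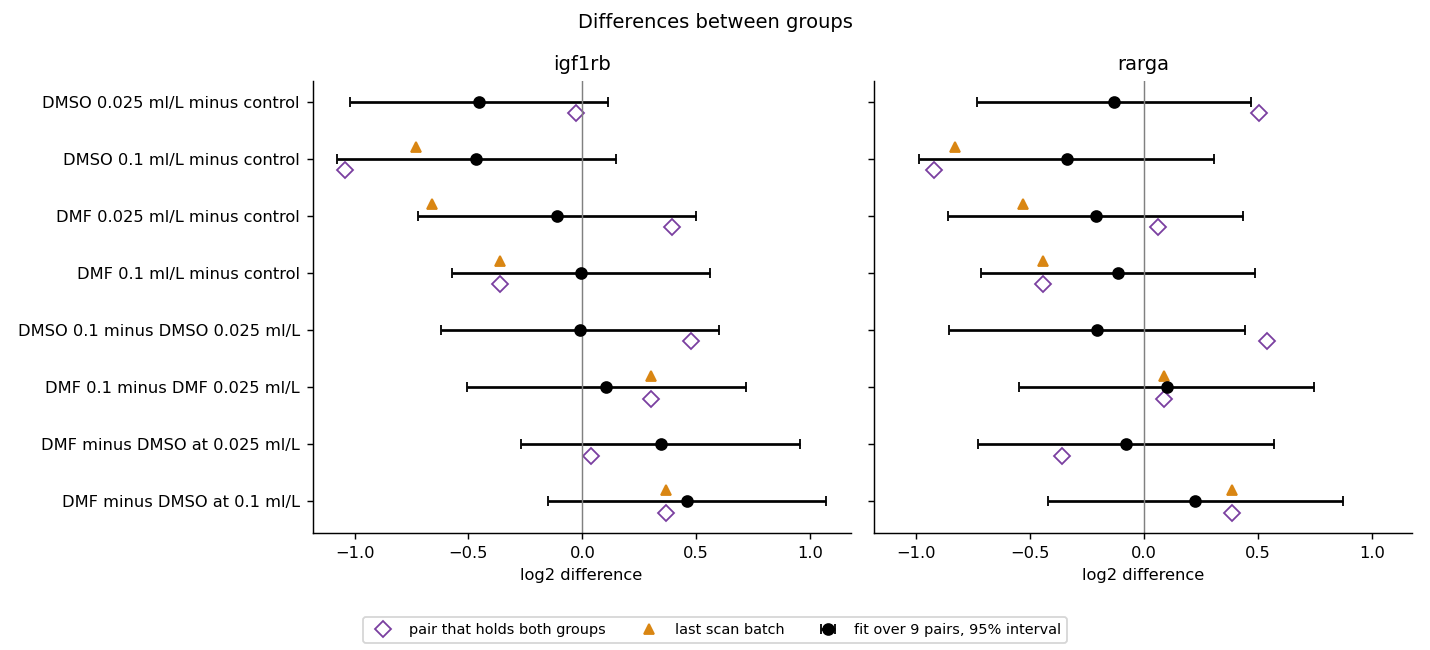
Log2 difference between groups for igf1rb (left) and rarga (right). Black points with bars are the fit over 9 pairs with its 95% interval, diamonds are the pair that holds both groups, and triangles are the estimate of the last scan batch where it has one. Every interval covers 0, and the diamonds of DMSO 0.1 ml/L minus control lie at -1.04 and -0.92.

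The step from the lower to the higher concentration was compared within each solvent. For DMSO the step was -0.0099 ± 0.28 for igf1rb, from -0.62 to 0.60 (limma adjusted p = 0.987), and -0.21 ± 0.30 for rarga, from -0.86 to 0.44 (adjusted p = 0.780). In this comparison 0.383% of probes passed, 14 of 3652, with 613 at an unadjusted p under 0.05. The pair of DMSO 0.1 and 0.025 ml/L pools 2 gave 0.48 for igf1rb and 0.54 for rarga, and the second batch alone gave -0.13 and -0.19. For DMF the step was 0.10 ± 0.28 for igf1rb, from -0.51 to 0.72, and 0.098 ± 0.30 for rarga, from -0.55 to 0.75 (adjusted p = 0.999 for both). There 0% of probes passed, with 102 at an unadjusted p under 0.05. The pair of the DMF groups gave 0.30 and 0.088, and these are also the values of the last batch. The second batch alone gave 0.33 and 0.34. The DMF step exceeded the DMSO step by 0.11 ± 0.37 for igf1rb (limma adjusted p = 0.928) and by 0.30 ± 0.39 for rarga (adjusted p = 0.786), so a different response to concentration was not detectable with these arrays. This comparison of the steps was added after seeing the data.

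DMF was set against DMSO at equal concentrations. At 0.1 ml/L, DMF minus DMSO was 0.46 ± 0.28 for igf1rb, with an interval of -0.15 to 1.07 (limma adjusted p = 0.524), and 0.22 ± 0.30 for rarga, from -0.42 to 0.87 (adjusted p = 0.797). Neither passed, while 0.548% of probes did, 20 of 3652, with 465 at an unadjusted p under 0.05. The pair that held both groups gave 0.37 for igf1rb and 0.39 for rarga, which is also the last batch, and the second batch alone gave 0.83 ± 0.62 and 0.38 ± 0.65. Both receptors had positive values in the fit and in each batch, but the fit is made of these batches. The second batch held 1 DMF 0.1 ml/L pool. Without the pair of control pool 4 and DMSO 0.1 ml/L pool 3, the fit gave 0.17 for igf1rb and -0.066 for rarga. In that DMSO pool the Cy5 amplitudes on array 11 were 0.957 and 1.52 times the empty median. The part of this in the result was not tested. At 0.025 ml/L, DMF minus DMSO was 0.34 ± 0.28 for igf1rb, from -0.27 to 0.96 (adjusted p = 0.753), and -0.080 ± 0.30 for rarga, from -0.73 to 0.57 (adjusted p = 0.955). There 0% of probes passed, with 324 at an unadjusted p under 0.05. The shared pair gave 0.037 and -0.36, and the second batch alone gave 0.37 and -0.15.

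The ratios of igf1rb and rarga resembled each other. Over the 9 pairs their uncentred correlation, which is taken about 0 because the sign of a pair is arbitrary, was 0.797, and the sign was the same in 7 of 9 pairs. The genes share arrays, pools and normalization, so this is a description. Few tested genes had a symbol, and among these each receptor was the one most like the other. Against igf1rb, dlx1a, a homeobox gene of the forebrain, had 0.56, and hoxb5a, a trunk and hindbrain hox gene, had 0.20 over 8 pairs. Against rarga, hoxa13b, a hox gene of the posterior body and fins, had 0.38 and dlx2a, a homeobox gene of the forebrain and pharyngeal arches, had 0.27. The least alike for both was naca, a subunit of the complex that binds nascent peptides, with -0.50 against igf1rb and -0.54 against rarga. Among all 3651 other probes tested, the median likeness was 0.0895 to igf1rb and 0.0966 to rarga, and the 95th percentiles were 0.714 and 0.687. The highest values were 0.969 and 0.933, so probes without a symbol were more alike than the receptors were to each other. The value of 0.797 lay at the 98.0th percentile of these probes for igf1rb and at the 98.9th for rarga. It leans most on control pool 4 over DMSO 0.1 ml/L pool 3, the largest ratio of both genes (1.04 and 0.92). In that DMSO pool the Cy5 amplitudes on array 11 were only 0.957 and 1.52 times the empty median. The likeness without this pair was not computed.

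Few partners of these receptors could be followed, since a gene symbol was found for 47 probe spots. Of 43 genes listed for IGF and insulin signalling, only igf1rb and its paralogue igf1ra were named on the array. The igf1ra probe had a ratio in 5 of 9 pairs and was not tested. In those pairs igf1ra lay between -0.21 and 0.071, while igf1rb ran from -0.39 to 0.36 in the same pairs. Of 31 genes listed for retinoid signalling, rarga, cyp26a1 and rbp4 were named. For cyp26a1, which encodes an enzyme that degrades retinoic acid, 1 of 18 arrays had a spot above the lowest grade and no pair had a ratio. For rbp4, which encodes a carrier of retinol, 7 pairs had a ratio, from -0.79 to 0.94, and it was not tested. No IGF or insulin ligand of the list was among the named probes.

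Of 9 hox genes listed as known to respond to retinoic acid, hoxb1b and hoxb5a were on the array, and 0 of the 2 passed in any comparison, higher or lower. Between 0% and 0.548% of all 3652 probes passed in a comparison, so nothing is read from this count. The hindbrain gene hoxb1b had 0.21 ± 0.25 for DMSO 0.1 ml/L against control (limma adjusted p = 0.765), and hoxb5a had 0.14 ± 0.25 (adjusted p = 0.866), where rarga had -0.34. For the DMSO step hoxb5a had 0.60 ± 0.26 (adjusted p = 0.272) and hoxb1b 0.15 ± 0.25 (adjusted p = 0.812), where rarga had -0.21. For DMSO 0.025 ml/L against control hoxb1b had 0.060 ± 0.25 and hoxb5a -0.46 ± 0.25 (adjusted p = 0.996 for both), where rarga had -0.13. For DMF 0.025 ml/L against control hoxb1b had -0.35 ± 0.28 (adjusted p = 0.893) and hoxb5a -0.28 ± 0.29 (adjusted p = 0.918), where rarga had -0.21. The hox genes thus lay on the side of rarga in some comparisons and on the other side in others. For the DMF step hoxb1b had 0.51 ± 0.28 and hoxb5a 0.22 ± 0.29 (adjusted p = 0.999 for both), where rarga had 0.098.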

How the data were processed

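The deposited scanner files hold a spot intensity per dye, the amplitude that BlueFuse for Microarrays estimated, per the file headers (version 3.3 for arrays 1 and 2, 3.6 for the others). They have no background column, and each spot has a confidence, a fraction with a grade, the lowest grade meaning below 0.1. The deposited value table holds a log2 ratio per spot made by the authors. Its normalization is unknown. Its direction, Cy5 over Cy3, was settled by rank correlation with the scanner ratios, highest for the matching array in each of 20 columns (0.38 to 0.84), and its column medians were -0.044 to 0.065. It served as an alternative.

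Limma 3.58.1 and statmod 1.5.0 were run in R 4.3.3. Loess ran within each array (span 0.3, 4 iterations) with the 750 control spots at weight 0, and these spots and those of the lowest grade were left out. The 172 spots of a repeated probe were averaged, which gave 16407 probes. A coefficient for each of the 4 exposed groups against control was fitted with lmFit and eBayes (8.18 prior degrees of freedom). Levels came from the same loess with Aquantile scaling between arrays. Alternatives left out each pair in turn, kept all 10 pairs or low-confidence spots, and changed the normalization, background, source, filter and model. The model fit, but not the normalization or the pair averaging before it, was tested on simulated pair ratios. The receptors, gene lists and tests were chosen with earlier results of these data known. Beside the receptors, the genes named were the members of the lists that were on the array, the symbol-bearing genes most and least like each receptor, and the embryo genes of the tissue check. Symbols were matched by RefSeq accession for 47 of 61 probe spots that carried one. The number of arrays limits the precision.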

Additional observations from a re-analysis of the deposited data

How the results depend on the processing

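The 18 results (8 differences and the F test for each receptor) were recomputed under 21 alternatives each, and 0 of these values passed the threshold. Some had an unadjusted p under 0.05. The lowest adjusted p was 0.145, for limma's F test of igf1rb with separate channels. That model also draws on levels between arrays, so an offset between scan batches does not fully cancel in it. The sign changed in 43 values, and the cause was not tested. With all 10 pairs as deposited the DMSO step of igf1rb was 0.070. It was 0.047 with print-tip loess, 0.19 with median centring, 0.0074 with empty spots as background, 0.15 with separate channels and 0.011 with array 2 added to single arrays, the last chosen after seeing the data. For rarga, DMSO 0.025 ml/L minus control was 0.057 with print-tip loess, DMF minus DMSO at 0.025 ml/L was 0.24 with median centring, and the DMF step was -0.048 with the authors' table. DMF 0.1 ml/L minus control was 0.17 for igf1rb with separate channels. In the second batch alone it was 0.39 for igf1rb and 0.19 for rarga, and DMF 0.025 ml/L minus control was 0.062 for igf1rb.

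Leaving out each pair in turn gave these ranges, igf1rb first and rarga second. DMSO 0.025 ml/L minus control was -0.74 to -0.24 and -0.56 to 0.15. DMSO 0.1 ml/L minus control was -0.71 to 0.041 and -0.71 to 0.17. DMF 0.025 ml/L minus control was -0.55 to 0.042 and -0.45 to -0.068. DMF 0.1 ml/L minus control was -0.20 to 0.23 and -0.33 to 0.10. The DMSO step was -0.44 to 0.28 and -0.86 to 0.085, and the DMF step -0.067 to 0.36 and -0.043 to 0.23. DMF minus DMSO was 0.092 to 0.61 and -0.27 to 0.17 at 0.025 ml/L, and 0.17 to 0.70 and -0.066 to 0.60 at 0.1 ml/L.

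Pools of different groups with the same replicate number gave 29 correlations from -0.54 to 0.39 (median -0.0058, 7 of them over 0.1). Pools with different numbers gave 91 from -0.60 to 0.45 (median -0.037, 27 of them over 0.1), so the numbers were not taken as pairs. The part of the scan batches in these correlations was not tested, so a shared effect of the number could be hidden. With the replicate number as a block, rarga had 0.17 for DMSO 0.025, 0.032 for DMSO 0.1 and 0.70 for DMF 0.1 ml/L minus control. In that fit igf1rb had 0.67 for DMF 0.1 ml/L minus control, 0.067 for the DMSO step and -0.64 for DMF minus DMSO at 0.025 ml/L. Without a change of sign, the DMF step moved to 1.54 ± 0.82 for igf1rb and 1.51 ± 0.91 for rarga (limma adjusted p = 0.980 for both). DMF 0.025 ml/L minus control moved to -0.87 ± 0.57 and -0.81 ± 0.63, and DMF minus DMSO at 0.025 ml/L to -0.98 ± 0.65 for rarga. These SEs are larger than those of the fit without the block. With 9 pairs the intervals given are wide, and they hold 0 as well as sizeable differences that these data leave possible. The part of second-batch spots near the empty spots in this width was not tested.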
